A study of Mus musculus with 12 samples.

Results

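Perivascular mural cells are the pericytes and vascular smooth muscle cells that wrap blood vessels, and 8 of their marker genes were followed in fetal mouse testes: Mcam, Cspg4, Rgs5, Kcnj8, Abcc9, Higd1b, Ndufa4l2 and Anpep. They were taken by symbol from the 24470 genes of the count table, 1 line each, as a list drawn up with earlier results of these data known. Of the 8 genes, 7 had enough counts to be tested among 15572 genes, and Higd1b did not. Whole testes from E14.5 embryos were profiled by stranded RNA-seq in 6 control pools (Nr2f2 f/f) and 6 Nr2f2 cKO pools (Wt1 CreER; Nr2f2 f/f), with 3 testes in each pool. Both groups carried the floxed Nr2f2 alleles, and tamoxifen, given 3 and 2 days before collection, activated the Cre in cells that express Wt1. Whether the pools of a group came from separate litters is not given in the sources used here, so p-values measure the spread between these pools.

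Mural cells sit within the basement membrane of small vessels, where they support the endothelium and set vessel tone. Endothelial cells recruit them by secreting PDGF-B, which binds PDGFRB on the mural cell, and Notch3 and angiopoietin signalling help them to mature. Pericytes of many organs carry an ATP-sensitive potassium channel that lets blood flow follow metabolism, and 2 of the 8 markers are its subunits. None of the 8 genes is restricted to mural cells in every tissue. In whole testes, fewer cells of a type and less RNA per cell cannot be told apart.

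Total counts ran from 7044531 to 59404778 per library, with control replicate 6 and cKO replicate 5 the shallowest. Nr2f2, the targeted gene, fell from 175 ± 8.87 counts-per-million (CPM) in controls to 75.9 ± 24.5 CPM in cKO testes (mean ± SD, n = 6 each; log2 fold change −1.21, edgeR's quasi-likelihood test, adjusted p = 0.000548). The testis markers Sox9, Amh, Dmrt1, Ddx4 and Dazl were present in all 12 libraries, the lowest of these values being 36.0 CPM for Sox9. Xist, made from the inactive X chromosome of female cells, was at 304 to 891 CPM in 4 libraries, namely control replicate 1 with cKO replicates 3, 5 and 6, and at 5.15 to 7.68 CPM in the other 8. A list of 7 ovarian genes, added after these values had been seen, summed to 375 CPM in control replicate 1 and to 178 to 263 CPM in those 3 cKO libraries, against 76.8 to 101 CPM elsewhere. Its member Foxl2, an ovarian transcription factor, was at 47.2 CPM in control replicate 1 and at 0.23 to 0.53 CPM in the other controls. In cKO pools it was at 14.6 to 19.3 CPM in the 3 with high Xist and at 0.86 to 1.30 CPM in the other 3, so the 8 low-Xist libraries also differed in Foxl2 (log2 fold change 1.45, adjusted p = 0.00958 in edgeR). Between the genotypes, Wnt4 alone of the list was called in all 12 libraries, and it was lower in cKO testes (list median log2 fold change 0.46). Without control replicate 1, Lgr5, Irx3, Runx1, Fst and Foxl2 were called higher in cKO testes (list median 1.97), and over the 8 low-Xist libraries Lgr5, Fst and Foxl2 were (median 0.48), with Wnt4 called lower in both. Xist and these genes in the 4 libraries go against a testis label, and each tested marker's result is also given without control replicate 1 or over the 8 libraries with Xist under 100 CPM (5 controls and 3 cKO). For other genes and lists these fits are given where a call changed.

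Among the 8 markers, Kcnj8 was the only one that passed the test between cKO and control testes, and it was lower. Its partner Abcc9 and the markers Mcam, Cspg4, Rgs5 and Ndufa4l2 did not pass, nor did Anpep. In all, 1 of 7 tested markers was called lower, where 4.85% of all tested genes were, and 0 were called higher, where 3.28% were. For none of the 7 tested markers, nor for Higd1b, did all 6 cKO pools lie under every control pool, a pattern found in 3.13% of tested genes. Their log2 fold changes had a median of −0.33, against 0.003 over all tested genes, with 5 below 0 and 2 above. That median was −0.19 without control replicate 1 and −0.01 over the 8 libraries.

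**Figure D1:**
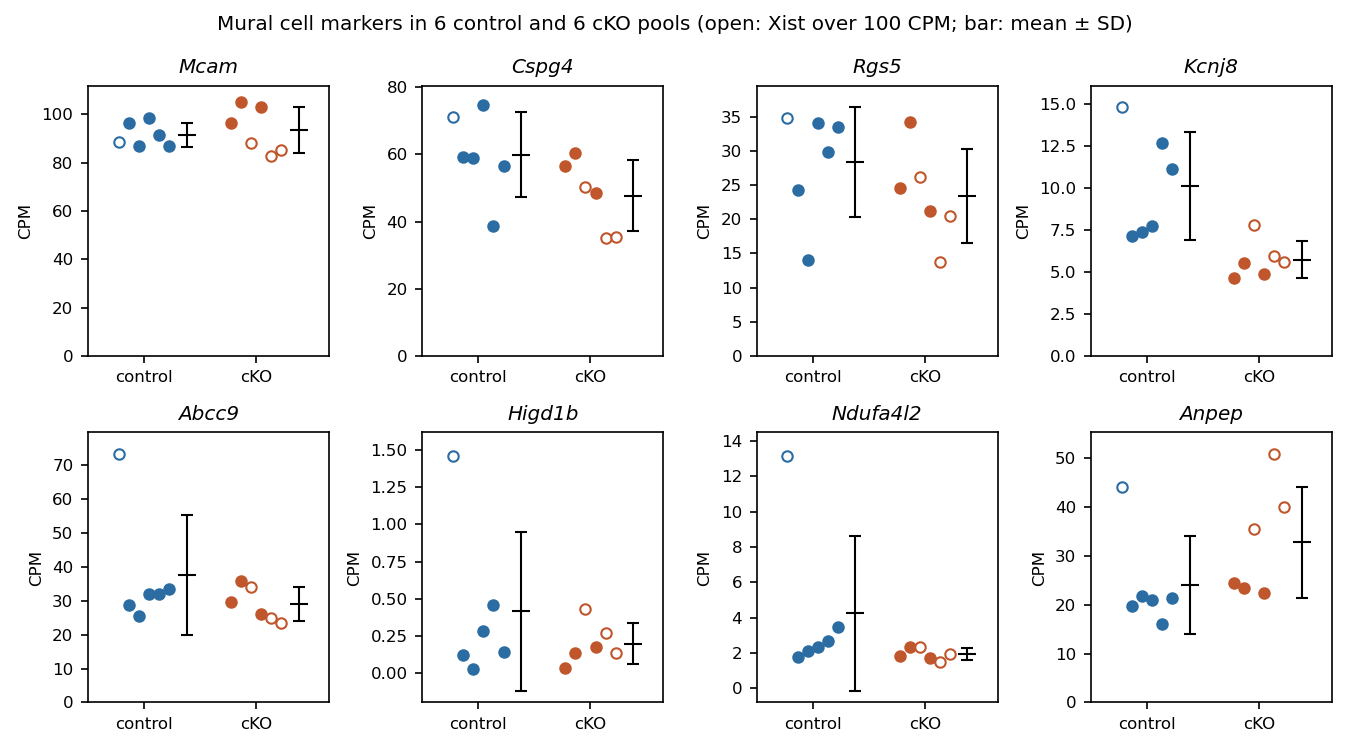
Level of each marker in counts-per-million (CPM, linear axes) in 6 control and 6 cKO pools, with the mean and SD of each group beside its points. Open circles are the 4 libraries with Xist over 100 CPM. Kcnj8 was lower in cKO pools, and control replicate 1 stood far above the other controls for Abcc9 (73.3 CPM), Ndufa4l2 (13.1 CPM), Higd1b (1.46 CPM) and Anpep (44.1 CPM).

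Kcnj8 encodes Kir6.1, the pore of the vascular ATP-sensitive potassium channel, and is one of the most selective pericyte markers of the brain. It lies on the minus strand at chr6:142564939-142571356 (mm10; Entrez 16523). Control pools had 7.16 CPM at the lowest, 9.43 CPM at the median and 14.8 CPM at the highest. In cKO pools the lowest was 4.66 CPM, the median 5.59 CPM and the highest 7.81 CPM. Of the 6 cKO pools, 5 lay under every control pool, and the groups overlapped only through cKO replicate 3.

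The mean of Kcnj8 was 10.2 ± 3.22 CPM in controls and 5.75 ± 1.13 CPM in cKO testes, and the fitted level in cKO testes was 56.9% of that in controls. Its log2 fold change was −0.81 (SE 0.20, 95% interval −1.24 to −0.39, edgeR's quasi-likelihood test, adjusted p = 0.0230). Without control replicate 1, which had the highest value, it was −0.66 (edgeR's quasi-likelihood test, adjusted p = 0.0244), with 10.5% of all tested genes then called lower. In the 8 libraries where Xist was low the fold change was −0.84 (adjusted p = 0.0345 in edgeR), with 3.39% of tested genes called lower. There the 3 cKO pools, at 4.66 to 5.55 CPM, lay under the 5 controls, at 7.16 to 12.7 CPM. The share of all tested genes with that split was not counted. The call was lost without control replicate 6 (adjusted p = 0.0502), without cKO replicate 1 (adjusted p = 0.0548) and without cKO replicate 4 (adjusted p = 0.0572), with log2 fold changes of −0.79, −0.76 and −0.77. Between 44 and 548 counts per library stood behind these values.

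Abcc9 encodes SUR2, the sulfonylurea receptor that surrounds the Kir6.1 pore and gives the channel its response to nucleotides. It is the next gene to Kcnj8, on the same strand at chr6:142587862-142702274 (mm10), with 16505 bp and no other gene between the intervals. Control pools ran from 25.7 CPM through a median of 32.0 CPM to 73.3 CPM, and cKO pools from 23.6 CPM through 28.0 CPM to 36.0 CPM. The highest control was replicate 1, and the other 5 averaged 30.4 ± 3.16 CPM, inside the cKO range. The log2 fold change of Abcc9 was −0.37 (SE 0.23, adjusted p = 0.315 by edgeR's quasi-likelihood test). It came to −0.06 without control replicate 1 (95% interval −0.31 to 0.20, adjusted p = 0.764) and to 0.021 over the 8 libraries (interval −0.24 to 0.28). Abcc9 overlaps 5330439B14Rik on the other strand, which the strand-specific counting keeps apart.

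The changes of the neighbouring subunit genes were compared directly, a comparison added after their values had been seen. The log2 ratio of Kcnj8 to Abcc9 in CPM, which is free of library scaling, averaged −1.85 ± 0.35 in controls and −2.34 ± 0.30 in cKO pools (n = 6 each). The difference was −0.50, given without a test because the pair was picked for its values. In the 8 libraries where Xist was low the difference was −0.85. Leaving out 1 library at a time gave differences from −0.59 to −0.39, the smallest without control replicate 5. The 3 cKO pools with high Xist had ratios close to one another and above those of the other 3 cKO pools, while control replicate 1 had the lowest ratio of the controls.

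**Figure D2:**
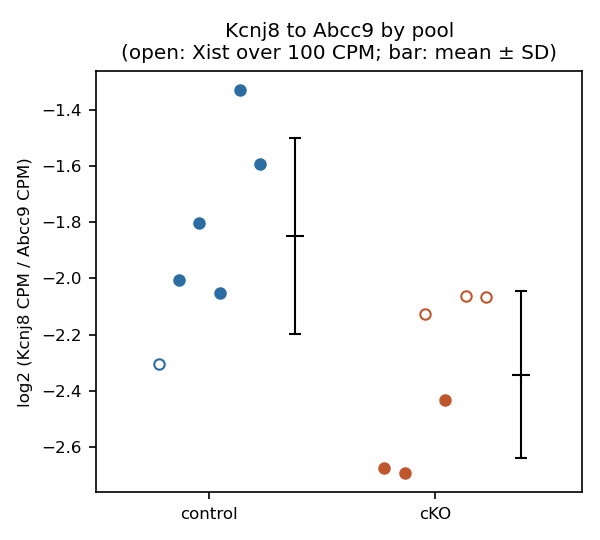
The log2 ratio of Kcnj8 to Abcc9 (both in CPM) in each control and cKO pool, with the mean and SD of each group. Open circles are libraries with Xist over 100 CPM. The control mean was −1.85 and the cKO mean −2.34, and the groups overlapped through control replicate 1 and the open cKO circles.

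The promoter windows of this gene pair are shown because Kcnj8 was the called marker and Abcc9 its neighbour and partner. Each window holds 250 bases before and 50 after a RefSeq start site (GRCm38.p6, the assembly of mm10), minus strand, written 5′ to 3′. Kcnj8 was read from chr6:142571565-142571864, whose start site lies 258 bp outside the interval in the count table, and Abcc9 from chr6:142702225-142702524. Capitals mark TGGGAA, the core letters of the site bound by RBPJ, the nuclear effector of Notch receptors.
Kcnj8: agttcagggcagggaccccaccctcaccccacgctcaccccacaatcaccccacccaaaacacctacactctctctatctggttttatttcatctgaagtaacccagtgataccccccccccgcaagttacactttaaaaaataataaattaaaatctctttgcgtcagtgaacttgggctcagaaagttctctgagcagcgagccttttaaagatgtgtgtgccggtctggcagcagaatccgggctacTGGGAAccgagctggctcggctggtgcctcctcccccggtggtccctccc
Abcc9: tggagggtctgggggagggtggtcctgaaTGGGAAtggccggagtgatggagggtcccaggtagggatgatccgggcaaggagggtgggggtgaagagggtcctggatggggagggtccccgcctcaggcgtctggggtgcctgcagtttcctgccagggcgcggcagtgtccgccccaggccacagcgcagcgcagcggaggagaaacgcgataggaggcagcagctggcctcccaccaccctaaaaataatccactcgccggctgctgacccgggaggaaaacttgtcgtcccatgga

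TGGGAA stood once in each of these windows, at the start site of Kcnj8 and upstream of that of Abcc9, and in none of the windows of Mcam, Cspg4, Rgs5 and Anpep. Searched on both strands, it occurs in 25.6% of 32851 RefSeq promoter windows of this length. AGGTCA, the core letters of the site of nuclear receptors such as NR2F2, was in none of the 6 windows and is in 16.3% of all, and the CArG box of serum response factor was likewise in none and is in 1.63% of all. Higd1b and Ndufa4l2 had no entry. A match describes letters only and does not locate a bound site, and a missing match covers only these windows. The start site used for Anpep lies 5858 bp from the interval of the table.

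Ndufa4l2 and Higd1b encode small mitochondrial proteins that mark pericytes in brain, lung and other organs, and Ndufa4l2 is also a target of the hypoxia-inducible factors. Ndufa4l2 lies at chr10:127514939-127517154 on the plus strand (mm10) and overlaps Shmt2 on the other strand. Its control pools ran from 1.75 CPM through a median of 2.52 CPM to 13.1 CPM, and its cKO pools from 1.49 CPM through 1.88 CPM to 2.35 CPM. Control replicate 1 alone was at 13.1 CPM, and the other controls averaged 2.48 ± 0.65 CPM. The log2 fold change of −1.15 (SE 0.45) had an unadjusted p of 0.0222 and an adjusted p of 0.129 in edgeR's quasi-likelihood test. Without control replicate 1 it was −0.28 (adjusted p = 0.282), and it was −0.28 over the 8 libraries as well.

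Higd1b, at chr11:102836296-102838040 on the plus strand (mm10), was close to undetected. It had 105 counts in all 12 libraries together, and 54 of them (51.4%) were in control replicate 1, at 1.46 CPM. In 6 libraries it had 3 counts or fewer. Outside control replicate 1 and cKO replicate 3, its highest level was 0.46 CPM. Fitted without the filter on low counts, its log2 fold change was −1.21 (SE 0.73, adjusted p = 0.360 by edgeR's quasi-likelihood test). The 5 controls other than replicate 1, all with low Xist, averaged 0.207 ± 0.168 CPM. The 3 cKO pools with low Xist averaged 0.115 ± 0.072 CPM and the 3 with high Xist 0.279 ± 0.149 CPM. All cKO pools together averaged 0.197 ± 0.138 CPM, and no difference between the groups was detected.

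Mcam encodes the adhesion molecule CD146, carried by endothelial cells as well as by mural cells. It lies at chr9:44134658-44142726 on the plus strand (mm10). Control pools were at 86.8 CPM, a median of 89.9 CPM and 98.5 CPM at the highest, and cKO pools at 82.9, 92.4 and 105 CPM. The log2 fold change was 0.03 (SE 0.07, 95% interval −0.12 to 0.19, adjusted p = 0.792 in edgeR's quasi-likelihood test). This was the narrowest interval among the 7 tested markers. Over the 8 low-Xist libraries the log2 fold change was 0.15 (95% interval −0.019 to 0.31, adjusted p = 0.219). Of the 6 cKO pools, 2 lay above every control, 2 lay under every control and the other 2 lay within the control range. The 3 with Xist under 100 CPM were at 96.5 to 105 CPM and the 3 with high Xist at 82.9 to 88.2 CPM.

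Cspg4 encodes NG2, a surface proteoglycan of pericytes and of glial progenitors. It lies at chr9:56865104-56899870 on the plus strand (mm10). Control pools ran from 38.7 CPM through a median of 59.1 CPM to 74.6 CPM, and cKO pools from 35.0 CPM through 49.4 CPM to 60.3 CPM, and the ranges overlapped. The log2 fold change of Cspg4 was −0.33 (SE 0.16, 95% interval −0.68 to 0.02, adjusted p = 0.220 in edgeR's quasi-likelihood test). With the 4 high-Xist libraries left out it was −0.07, with an interval from −0.43 to 0.30. The lowest cKO value of Cspg4 was in a library with high Xist.

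Rgs5 encodes a regulator of G protein signalling that shortens the response of mural cells to vasoactive signals. It lies at chr1:169655501-169695813 on the plus strand (mm10). Control pools ran from 14.1 CPM through a median of 31.7 CPM to 34.8 CPM, and cKO pools from 13.7 CPM through 22.9 CPM to 34.3 CPM. Both groups spread over more than a 2-fold range and overlapped almost entirely. The log2 fold change of Rgs5 was −0.26 (SE 0.22, 95% interval −0.74 to 0.21, adjusted p = 0.471 in edgeR's quasi-likelihood test), and −0.01 over the 8 libraries.

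Anpep encodes CD13, an aminopeptidase on pericytes, fibroblasts, myeloid cells and some epithelia. It lies at chr7:79821803-79842352 on the minus strand (mm10). Control pools ran from 16.1 CPM through a median of 21.2 CPM to 44.1 CPM, and cKO pools from 22.3 CPM through 29.9 CPM to 50.8 CPM. Its values followed Xist: the 4 libraries with Xist over 100 CPM were at 35.4 to 50.8 CPM and the other 8 at 16.1 to 24.4 CPM, with no overlap. Among those 8, the 3 cKO pools, at 22.3 to 24.4 CPM, lay above the 5 controls, at 16.1 to 21.8 CPM. The share of all tested genes that split in either of these ways was not counted, so neither split is shown to be unusual.

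The log2 fold change of Anpep was 0.42 (SE 0.25, adjusted p = 0.311 by edgeR's quasi-likelihood test). Without control replicate 1 it was 0.69 (SE 0.20, adjusted p = 0.0289) and passed the test, as 9.44% of tested genes then did in that direction, but all 3 remaining libraries with high Xist are cKO. In the 8 remaining libraries without high Xist it was 0.23 (95% interval −0.002 to 0.46, adjusted p = 0.179). With 1 control and 3 cKO libraries, those with high Xist could not be compared by genotype on their own. The part of the ovarian genes in the level of Anpep was not tested.

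**Figure D3:**
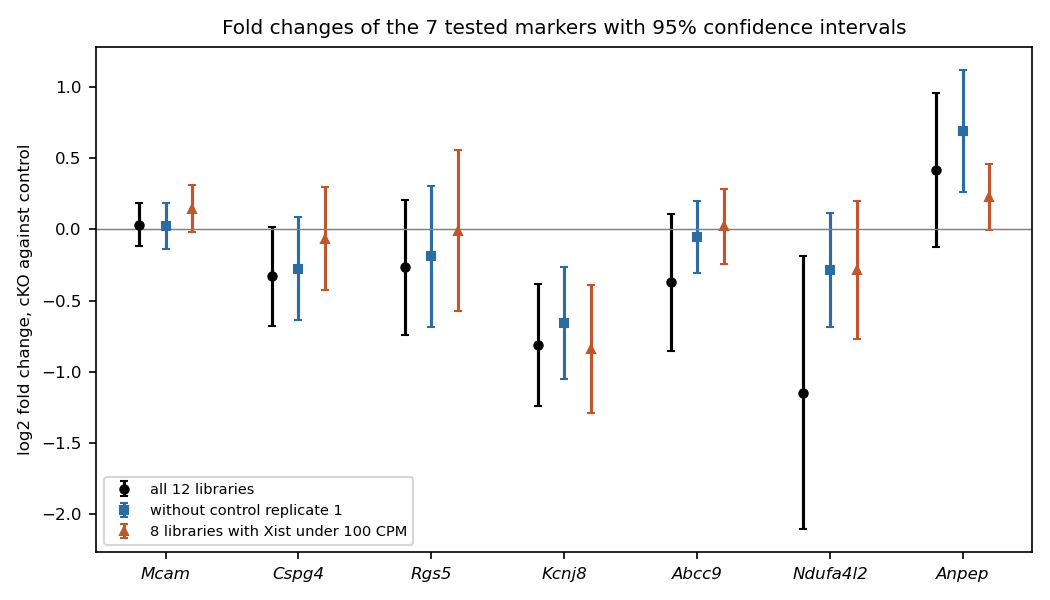
Log2 fold change of the 7 tested markers in cKO against control testes with 95% confidence intervals from edgeR, in all 12 libraries, without control replicate 1, and over the 8 libraries with Xist under 100 CPM. Kcnj8 stayed below 0 in all 3 fits (−0.81, −0.66 and −0.84), while Abcc9 and Ndufa4l2 moved toward 0 without control replicate 1.

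Control replicate 1 was the highest of the 12 libraries for 5 of the 8 markers (Rgs5, Kcnj8, Abcc9, Ndufa4l2 and the untested Higd1b), where it was so for 16.4% of all tested genes. It also had the highest sum of the 14 endothelial markers, 715 CPM against 474 to 544 CPM in the other controls and 473 to 590 CPM in cKO pools. It had the highest value for 10 of those 14 genes. The hypoxia-induced genes summed to 613 CPM in it and to 272 to 531 CPM in the other controls. Whether these sums have a part in its marker levels was not tested.

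**Figure D4:**
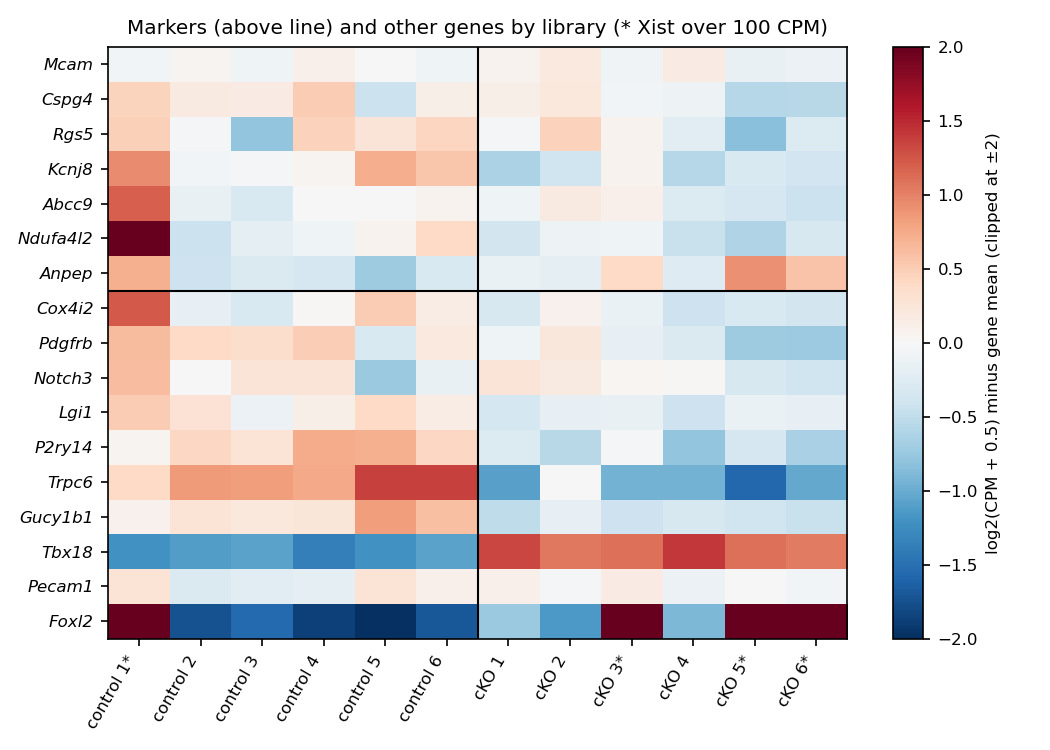
Log2(CPM + 0.5) of 7 markers (above the line) and of other genes, each minus its own mean over the 12 libraries and clipped at 2 in either direction. Asterisks mark the 4 libraries with Xist over 100 CPM. Kcnj8, Abcc9, Ndufa4l2 and Cox4i2 were all highest in control replicate 1, Anpep and Foxl2 were high in all 4 marked libraries, and Tbx18 separated the genotypes.

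Levels of different genes were compared as CPM per kilobase of exon (RPKM), using exon lengths of GENCODE M21. Mcam was the most abundant marker in controls, at a mean of 27.3 RPKM and with pools from 25.9 to 29.4 RPKM, and its pools did not overlap those of the next. Rgs5 (6.25 ± 1.77), Anpep (5.81 ± 2.43), Cspg4 (5.02 ± 1.06), Abcc9 (4.48 ± 2.12), Kcnj8 (3.98 ± 1.27) and Ndufa4l2 (1.60 to 12.0, median 2.30 RPKM) followed in the order of their medians (the others as mean ± SD), each overlapping its neighbour in the order. Higd1b was last at a median of 0.252 RPKM (0.030 to 1.72), and it overlapped Ndufa4l2 only through control replicate 1. The pools of Mcam varied least, with a coefficient of variation of 5.48%, against 28.3% for Rgs5 and 31.8% for Kcnj8 in controls.

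Of 25 other mural cell genes, 24 were tested, 5 fell and 1 rose, and their median log2 fold change was −0.12 (−0.052 without control replicate 1 and −0.023 over the 8 low-Xist libraries). Those that fell were Trpc6, a cation channel (log2 fold change −1.92, adjusted p = 0.000383), P2ry14, a receptor for UDP-sugars (−1.15, adjusted p = 0.00595), Gucy1b1 and Gucy1a1, the subunits of the nitric oxide receptor guanylate cyclase (−0.77, adjusted p = 0.00130, and −0.55, adjusted p = 0.00481), and Lgi1, a secreted protein (−0.57, adjusted p = 0.0342, all by edgeR's quasi-likelihood test). For each of these 5 genes all 6 cKO pools lay under every control, a pattern found in 3.13% of tested genes. Tbx18, a T-box factor of mural cells and of urogenital mesenchyme, rose from 1.04 ± 0.119 to 7.39 ± 0.899 CPM (log2 fold change 2.83, adjusted p = 2.57e-08), with all 6 cKO pools above every control. In the 8 low-Xist libraries 4 of the 5 were still called lower and Lgi1 was not (adjusted p = 0.0775), and Tbx18 was still called higher. Lgi1 is among the genes by which the authors marked their testis pericytes. Of the others, Dgkb (log2 fold change −0.23, adjusted p = 0.719), Ndst3 (0.25, adjusted p = 0.568) and Steap4 (−0.13, adjusted p = 0.707) did not pass in edgeR, nor did Mcam and Cspg4. Which testis cells the genes of this list come from was not tested.

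The defining receptor of mural cells, Pdgfrb, did not pass, at 186 ± 37.6 CPM in controls and 125 ± 32.2 CPM in cKO testes (log2 fold change −0.58, adjusted p = 0.0535 in edgeR's quasi-likelihood test). Over the 8 libraries its log2 fold change was −0.29 (adjusted p = 0.269). Notch3 had a log2 fold change of −0.12 (adjusted p = 0.712), which was 0.19 over the 8 libraries, and Cox4i2, another mitochondrial pericyte marker, one of −0.76 (adjusted p = 0.128), which was −0.37 without control replicate 1.

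Among 17 genes of mural cell recruitment, 1 rose and 1 fell, and the median log2 fold change was −0.11 (0.12 over the 8 low-Xist libraries). Cdh2, the N-cadherin that joins pericytes to endothelium and also marks other testis cells, rose from 49.1 ± 10.5 to 91.8 ± 4.48 CPM (log2 fold change 0.89, adjusted p = 0.000383 in edgeR's quasi-likelihood test). Tek, the endothelial receptor of the angiopoietins, fell (log2 fold change −0.41, adjusted p = 0.0352), but did not pass over the 8 libraries (adjusted p = 0.182) and was not called in 11 of 22 alternatives. Its ligand gene Angpt1, made by mural cells, had a log2 fold change of −0.59 (adjusted p = 0.0587), and passed as lower without control replicate 1 (−0.65, adjusted p = 0.0280) but not over the 8 libraries (−0.54, adjusted p = 0.166). Pdgfb, the endothelial ligand of PDGFRB, had one of 0.40 (adjusted p = 0.266), which was 0.71 over the 8 libraries (adjusted p = 0.0753). Cdh2 passed in both of these fits.

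Of 7 tested paralogs of the markers, Alcam, a relative of Mcam, was the one that passed in all 12 libraries (list median −0.18, and −0.35 over the 8 low-Xist libraries), and it fell (log2 fold change −0.59, adjusted p = 0.00552 in edgeR's quasi-likelihood test). Rgs4, like Rgs5 a regulator of G protein signalling, had a log2 fold change of −0.73 (adjusted p = 0.164), which was −0.44 without control replicate 1 (adjusted p = 0.288). The pancreatic type of sulfonylurea receptor, Abcc8, was at −0.29, and its pore gene Kcnj11 had 102 counts in all and was not tested. Higd1a was at −0.18, Ndufa4 at −0.12, Enpep at −0.06 and Lnpep at 0.23. Lnpep, like Anpep an aminopeptidase, passed as higher without control replicate 1 (0.33, adjusted p = 0.00372) and over the 8 libraries (0.39, adjusted p = 0.0124), and Alcam passed as lower in both but not when libraries were scaled on the endothelial list. None of 8 hypoxia-induced genes was called by edgeR in all 12 libraries, and 1 was in 3 of 22 alternatives (DESeq2, the replicate block and without control replicate 4). Their median was −0.32, and the most abundant, Vegfa and Pdk1, were at −0.45 and −0.19. Control replicate 1 had 257 CPM of Vegfa, where the other controls averaged 104 CPM, and without it the list median was −0.12 and Vegfa was at −0.12.

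**Figure D5:**
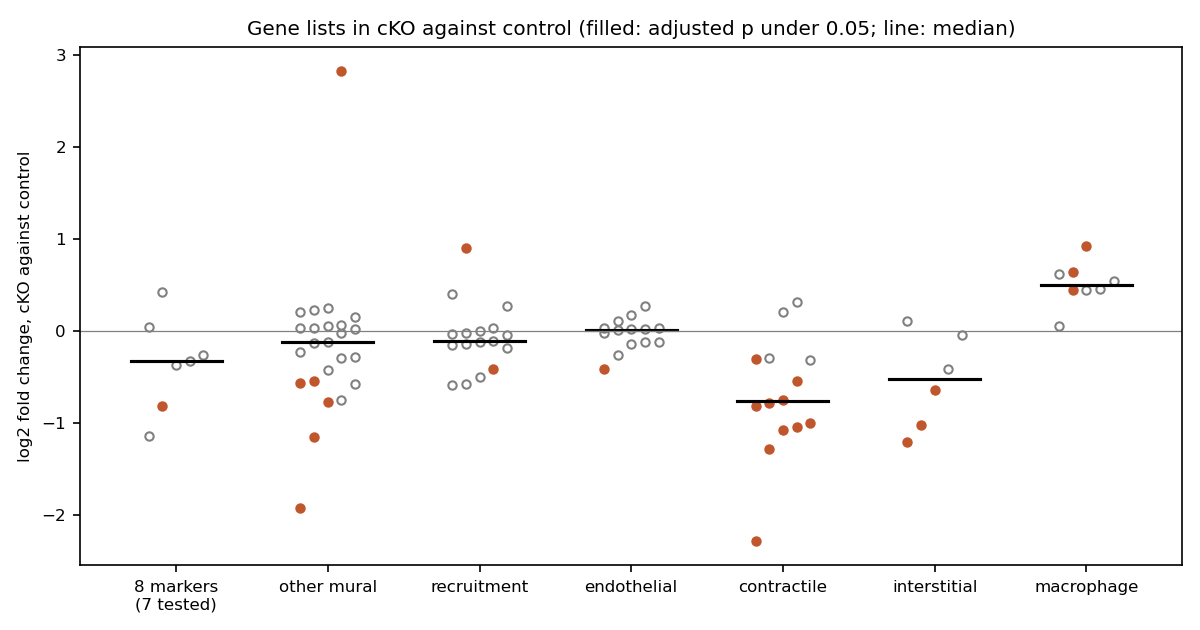
Log2 fold change in cKO against control testes of each tested gene of 7 lists. Filled points passed edgeR's test at an adjusted p under 0.05 and lines are list medians. The 8 markers (7 tested) had a median of −0.33, the endothelial list one of 0.01 and the contractile list one of −0.77.

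Marker lists of other cell types were read from the same fit. The median log2 fold change of the 14 endothelial markers was 0.01, with only Tek called (lower). It was 0.09 without control replicate 1, with Robo4 and Kdr called higher and Tek lower, and 0.21 over the 8 low-Xist libraries, with Robo4 alone called. Contractile genes, shared by vascular smooth muscle, the tunica and peritubular myoid cells, fell in 10 of 14 (median −0.77): Lmod1, Cnn1, Tagln, Myh11, Actg2, Myl9, Acta2, Tpm2, Cald1 and Mylk. Without control replicate 1, Tpm1 was also called lower and Synpo2 higher, and over the 8 libraries Actg2 and Mylk were not called (median −0.65). Interstitial genes fell in 3 of 6 (Nr2f2, Tcf21 and Wnt5a, median −0.53) and fetal Leydig cell genes in 3 of 5 (Cyp17a1, Cyp11a1 and Hsd3b1, median −0.61), and all 6 were called lower in the other fits too. Pdgfra and Nr5a1 were added to them without control replicate 1, and the interstitial median was −0.33 over the 8 libraries. Macrophage genes rose in 3 of 8 (Cx3cr1, Csf1r and C1qb, median 0.50) and mesonephric epithelial genes in 3 of 7 tested (Lhx1, Cdh1 and Pax8, median 0.50). Without control replicate 1, C1qa was called higher as well, and the macrophage count ran from 1 (scaled on the endothelial list) to 6 over all alternatives. Over the 8 libraries C1qb (adjusted p = 0.0644), Lhx1 and Pax8 lost their calls, and Emx2, a mesonephric gene, was called lower (adjusted p = 0.0454 in edgeR). With no filter on low counts, or scaled on the endothelial list, 0 mesonephric genes were called higher, and that count moved by over 1.5 times in 12 of 22 alternatives. No Sertoli (Amh, Sox9, median 0.08), germ cell (Dazl, Ddx4, median 0.20) or glial gene (Erbb3) was called by edgeR in all 12 libraries, and 1 glial gene was called lower without control replicate 5. Over the 8 low-Xist libraries the Sertoli median was 0.28 and the germ cell median 0.033, and the latter was 0.12 without control replicate 1. Summed CPM of the contractile list ran from 1830 to 2343 in controls and from 1227 to 1680 in cKO pools, that of the macrophage list from 48.2 to 77.4 and from 73.5 to 90.2, and no list had a gene at 0 in every library. Whether these cells have a part in the marker levels was not tested.

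The genes most like each marker were found by the root mean square difference of centred log2 CPM over the 12 libraries, a description without a test. Nearest to Kcnj8 were Calcrl (0.149) and Clec14a (0.160), with log2 fold changes of −0.67 and −0.52. Abcc9 was nearest to Stc2 (0.145) and Cox4i2 (0.183), and Ndufa4l2 to AW549542 (0.280). Anpep was nearest to Prkag2 (0.120) and Shisa6 (0.126), and Rgs5 to Samd9l (0.220) and Tmem178b (0.228). Cspg4 was nearest to Kif26a (0.0777) and Tril (0.0913), and Mcam to Cep120 (0.0557) and Oga (0.0619). No marker was among the nearest genes of another.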

How the data were processed

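RNA of 3 pooled E14.5 testes per library was sequenced after stranded poly(A) library preparation. According to their methods and the submitters' processing notes, the authors trimmed reads with Trim Galore 0.6.7, aligned them to mm10 with STAR 2.5 and counted them by strand on RefSeq genes with featureCounts of Subread 1.5.0-p1. They deposited raw counts per gene, without normalization. All 12 columns were used.

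Counts were fitted here in R 4.3.3 with edgeR 4.0.16 (TMM scaling, filterByExpr at min.count 10 and min.total.count 15, glmQLFit and glmQLFTest without covariates). Benjamini-Hochberg adjustment ran over all genes tested, and 0.05 was the threshold. The standard error was the size of the log2 fold change divided by the square root of F. DESeq2 1.42.0, limma 3.58.1 (voom), other scalings and filters, a replicate block, the 8 libraries with Xist under 100 CPM and leaving out each library were alternatives. The script was tested on simulated data. Higd1b and, in the shallow libraries, Ndufa4l2 had few counts, so counting error also limits their precision.

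The members and lists were chosen with earlier results of these data known. The rule for named genes took the members and their paralogs, Nr2f2, the called genes of each list or else its 2 most abundant, and the 2 genes nearest to each member. Part of what this rule names is not reported here. The ratio of Kcnj8 to Abcc9, the ovarian list and other genes singled out (Pdgfrb, Notch3, Cox4i2, Angpt1, Pdgfb, Foxl2, Dgkb, Ndst3 and Steap4) were added after values had been seen.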

Additional observations from a re-analysis of the deposited data

Results flagged for a closer look

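In 4 of 16 groups tested (each of the 8 markers in each genotype), 1 pool stood apart from the other 5 by more than its group's range allows at the 95% level. Chance flags about 1 group in 20 at that level if values are normally distributed. All 4 were control replicate 1, so they are not independent of one another. Abcc9 was at 73.3 CPM in that pool, with the other controls at 25.7 to 33.5 CPM. Ndufa4l2 was at 13.1 CPM, with the others at 1.75 to 3.47 CPM. Anpep was at 44.1 CPM, with the others at 16.1 to 21.8 CPM. Higd1b was at 1.46 CPM, with the others at 0.025 to 0.46 CPM, from 1 to 6 counts, where that chance rate may not hold.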

How the results depend on the processing

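Kcnj8 kept its direction in all 22 alternatives and its call in 18 (DESeq2: adjusted p = 0.00201), with a log2 fold change from −0.93 to −0.66. The replicate block left 0 markers called (Kcnj8 −0.77, adjusted p = 0.0622). Same-numbered pools correlated at −0.33 to 0.27, with 2 of 6 over 0.1, and 1 cKO pool correlated best with its own number. These correlations also carry the Xist and depth differences, so they cannot show whether same-numbered pools shared a litter or a preparation. Scaling on the endothelial list gave 381 genes lower and 232 higher, and Mcam at −0.037. DESeq2 called 870 genes higher. Leaving out 1 library at a time gave 497 to 1635 genes lower and 319 to 1471 higher, 0 to 1 markers lower and 0 to 1 higher, Mcam from −0.0021 (without cKO replicate 2) to 0.066, and a difference in the Kcnj8 to Abcc9 ratio from −0.59 to −0.39. The highest of these gene counts came without control replicate 1 and the lowest without cKO replicate 4. Over the 8 libraries Abcc9 was at 0.021, and 1 of the 14 nearest genes (Kif26a) was still among them. With the longest transcript as length, Mcam was at 30.6 and Cspg4 at 7.37 RPKM in controls, which puts Cspg4 above Rgs5 (6.94) and Anpep (6.33) by mean level. The cause of these shifts was not tested.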
